A study of Mus musculus with 24 samples.

Results

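The matrix genes described here are the 9 genes Acan, Bcan, Ncan, Vcan, Hapln1, Hapln2, Hapln4, Tnr and Tnc, which encode the large proteoglycans, link proteins and tenascins of perineuronal nets and of the loose matrix of brain. They were taken by symbol, and all 9 were found among the 24972 genes of the deposited tables. The tissue was the prefrontal cortex of offspring at P21, measured in 24 RNA-seq libraries: 6 male MO, 6 male SAL, 6 female MO and 6 female SAL. All offspring were B6D2F1/J hybrids of C57BL/6J mothers and DBA/2J fathers, labelled wild type. MO offspring came from mothers injected under the skin every day with morphine sulfate, beginning 1 week before breeding with lower doses that were stepped up within days to 10 mg/kg and ending when the pups were weaned, and SAL offspring from mothers injected with an equal volume of saline. Only the mothers were injected, so pups were exposed before birth and through nursing, and small litters were merged soon after birth. Each library was a different animal and no library number was shared between groups. The study took 1 offspring of each sex from a litter, so male and female libraries can be littermates, and which ones are is not given.

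Perineuronal nets are lattices of extracellular matrix that close around the cell body and dendrites of certain neurons, above all the fast-spiking interneurons that contain parvalbumin. A backbone of hyaluronan made at the cell surface is decorated with lecticans, proteoglycans that carry chondroitin sulfate chains (aggrecan, brevican, neurocan and versican, encoded by Acan, Bcan, Ncan and Vcan). Link proteins of the Hapln family clamp each lectican to hyaluronan, and tenascins tie lecticans to one another. In rodent cortex, nets form during the weeks after birth, and their closure accompanies the end of juvenile plasticity.

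In units of 1e6, libraries held 14.7 to 15.97 normalized counts. In each library the commonest low value, taken as the worth of 1 read, was 0.781 to 1.18 normalized counts, which corresponds to about 13.5 to 20.1 reads in the same unit. On that approximate scale the lowest library held 11.01 reads of Acan and 5.96 of Hapln2, and at least 39.97 reads of each of the other 7 genes, so Acan and Hapln2 carry the largest counting error of the 9. Markers of cortical excitatory neurons such as Slc17a7 were abundant, with summed levels of 79089 to 98264 normalized counts over 6 genes, against 1762 to 6197 over 6 markers of striatal neurons, and no list of markers had a gene at 0 throughout a group. One female MO library, PFC1, stood apart. It had the highest sum of 24 libraries for markers of mature oligodendrocytes (316227 normalized counts, female MO median 67750), astrocytes (132934, median 85405), oligodendrocyte precursors (9696, median 5534) and striatal neurons (6197, median 2128). Its sums were also the highest for microglia (6843, median 3909), endothelium (4007, median 2976) and blood (8580, median 5789), and the lowest for parvalbumin interneurons (6710, median 8724). Results that rest on PFC1 are given with and without it. In bulk tissue, fewer cells of a type and less RNA in each cell cannot be told apart.

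The 9 genes spanned a wide range of levels, with brevican and neurocan RNA at the top and aggrecan RNA at the bottom. Dividing each value by the length of the longest coding transcript gave median levels over 24 libraries of 987 normalized counts per kilobase for Bcan and 748 for Ncan. The link protein genes Hapln4 and Hapln1 followed at 314 and 134 normalized counts per kilobase. Tnr had a median of 41.2 and Vcan of 21.6 normalized counts per kilobase, Tnc of 9.93, Hapln2 of 8.37 and Acan of 3.15. Within libraries the order Bcan over Ncan, Ncan over Hapln4, Hapln4 over Hapln1, Hapln1 over Tnr and Tnr over Vcan held in 24 of 24. The ranges of Bcan and Ncan overlapped, as did those of Tnr and Vcan, whereas Hapln4 overlapped with neither Ncan nor Hapln1 and Hapln1 did not overlap with Tnr. Lower down the order was loose, with Vcan above Tnc in 21 of 24 libraries, Tnc above Hapln2 in 15 of 24 and Hapln2 above Acan in 23 of 24. Male and female tables were normalized separately by the authors, so these levels describe the order of the genes and no level is compared between the sexes. Vcan is spliced into forms of very different length, with 8 annotated coding transcripts of 0.294 to 12.4 kb, so its level per kilobase is uncertain. The lead of Bcan over Ncan also depends on the length used. With all annotated exons of a gene merged, the medians were 763 normalized counts per kilobase for Bcan and 748 for Ncan. Their order and the share of Bcan below are therefore those by the longest coding transcript. Among the 4 lecticans per kilobase, Bcan made up 55.7% ± 1.75 of the sum in male MO, 54.5% ± 1.58 in male SAL, 59.2% ± 5.02 in female MO and 56.8% ± 3.05 in female SAL libraries (SD, n = 6 each). The share of Acan was 0.191% ± 0.055 in male MO, 0.194% ± 0.050 in male SAL, 0.155% ± 0.070 in female MO and 0.203% ± 0.047 in female SAL libraries. Lectican RNA of this tissue was therefore nearly all brevican and neurocan.

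**Figure D1:**
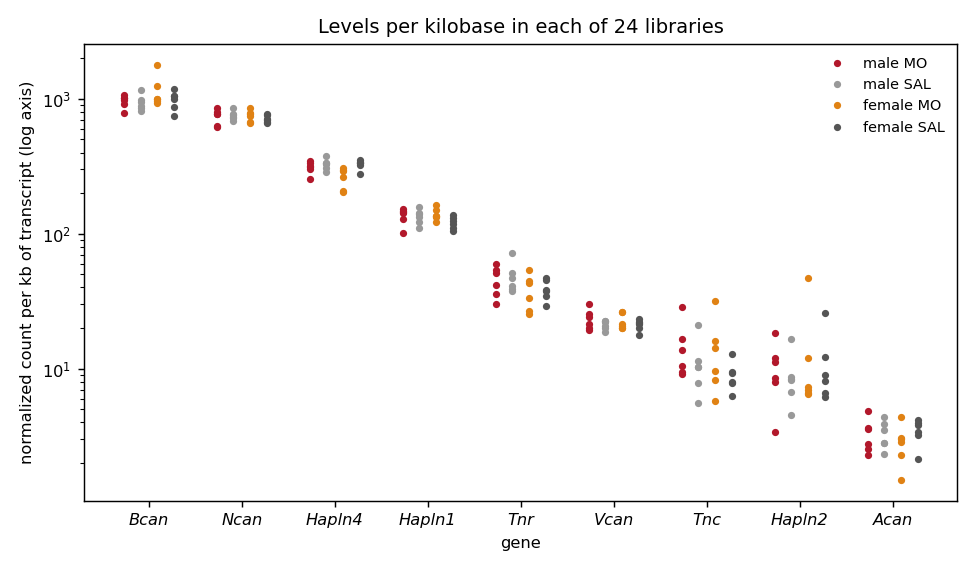
Level of each gene per kilobase of its longest coding transcript (y axis, normalized counts per kb, log axis) for the 9 genes (x axis), with 1 point for each of 24 libraries coloured by group. Bcan and Ncan lie highest at medians of 987 and 748, Acan lowest at 3.15, and the spread between libraries is widest for Hapln2 and Tnc.

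The genes also differed in how far they varied between libraries. From the lowest to the highest of the 24 libraries, Ncan spanned 1.403-fold, Hapln1 1.62-fold, Vcan 1.71-fold and Hapln4 1.85-fold. Bcan spanned 2.41-fold, Tnr 2.81-fold and Acan 3.22-fold. Tnc spanned 5.72-fold and Hapln2 13.9-fold. For all but Ncan and Bcan, the lowest and highest libraries lay in different tables. Differences of table, sex and MO therefore enter these spans along with those between animals. For Acan, the coefficient of variation within a group was 21.0% to 33.6%, where counting error at the approximate read numbers alone gives 19.8% to 21.9%. For Tnc it was 24.9% to 65.9% where counting gives 9.86% to 12.6%, and for Hapln2 it was 46.0% to 112% where counting gives 20.1% to 24.9%. Animals, dissection and library preparation all enter this spread and cannot be told apart.

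Each lectican gene of the mouse lies beside a link protein gene (GENCODE, GRCm38, the same assembly as mm10). Bcan (chr3:87987531-88000230, minus strand) lies 21.5 kb from Hapln2 (chr3:88021750-88027583, minus strand). Ncan (chr8:70093085-70120873, minus strand) and Hapln4 (chr8:70083457-70090862, plus strand) run towards each other with 2.22 kb between them. Vcan (chr13:89655312-89742509, minus strand) and Hapln1 (chr13:89539796-89611652, plus strand) also converge, 43.7 kb apart. Acan (chr7:79053483-79115099, plus strand) ends 0.002 kb from the end of Hapln3 (chr7:79115102-79131018, minus strand), a link protein gene outside the set. Tnr lies on chromosome 1 and Tnc on chromosome 4 with no other member beside them. The kit kept the strand of the RNA and the study's counting used it, so reads of converging neighbours are separable in principle. Levels of neighbours did not track each other closely. After removal of group means, the correlation over 24 libraries was r = 0.43 and rho = 0.26 for Bcan and Hapln2 (permutation p = 0.103 and 0.246, r = 0.09 without PFC1, 0.68 in libraries whose column names carry the suffix combined and 0.03 in the others). It was r = -0.21 and rho = -0.24 for Ncan and Hapln4 (permutation p = 0.37 and 0.297, r = -0.26 without the 2 most distant libraries, 0.15 with the suffix and -0.35 without it). For Vcan and Hapln1 it was r = 0.46 and rho = 0.43 (permutation p = 0.051 and 0.0543, 0.25 with the suffix and 0.60 without it), and r = 0.32 without the 2 most distant libraries. For Acan and Hapln3 it was r = -0.33 and rho = -0.20 (permutation p = 0.215 and 0.387, r = -0.47 without the 2 most distant libraries, -0.15 with the suffix and -0.51 without it). None of the 3 pairs of members passed adjustment over the 36 pairs (adjusted permutation p of r from 0.371 upward).

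Windows before the RefSeq starts of the neighbours Bcan and Hapln2, and of Hapln1, are shown. That of Bcan holds more CG dinucleotides than the median promoter, and those of both link protein genes hold fewer. The windows are the 250 bases before the start in RefSeq (GRCm38.p6), 5′ to 3′ on the gene's strand, and 8 of the 9 genes were matched, all but Hapln4. RefSeq and GENCODE starts differ for some of these genes. In GENCODE the Hapln1 gene begins at chr13:89539796, so its whole window lies inside the gene by that annotation. Capitals mark ACAAT, the core letters that SOX-family factors recognise, or GGGCGG, the core of a GC box, on either strand (ATTGT and CCGCCC on the other).
Hapln2, chr3:88027512-88027761, minus strand: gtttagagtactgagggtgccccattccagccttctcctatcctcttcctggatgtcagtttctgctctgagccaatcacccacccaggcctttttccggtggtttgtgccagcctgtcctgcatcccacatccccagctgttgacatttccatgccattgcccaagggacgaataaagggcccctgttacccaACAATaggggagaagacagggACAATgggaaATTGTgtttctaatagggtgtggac
Bcan, chr3:88000357-88000606, minus strand: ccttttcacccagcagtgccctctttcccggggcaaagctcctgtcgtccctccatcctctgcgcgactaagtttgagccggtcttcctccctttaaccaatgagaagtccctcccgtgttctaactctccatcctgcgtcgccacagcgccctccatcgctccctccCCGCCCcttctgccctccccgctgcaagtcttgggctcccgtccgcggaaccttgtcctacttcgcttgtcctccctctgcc
Hapln1, chr13:89540386-89540635, plus strand: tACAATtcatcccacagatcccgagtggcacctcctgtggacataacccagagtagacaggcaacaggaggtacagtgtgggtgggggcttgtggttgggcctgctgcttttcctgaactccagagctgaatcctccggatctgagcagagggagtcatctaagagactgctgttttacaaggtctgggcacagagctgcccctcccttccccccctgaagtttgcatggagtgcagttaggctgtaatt

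The Hapln2 window held ACAAT 3 times, beginning 56, 35 and 25 bases before the RefSeq start, and no GGGCGG. In GENCODE the gene begins farther out, at chr3:88027583, so all 3 matches lie inside the gene by that annotation. At least 1 ACAAT occurred in 28.3% of 27025 mouse promoters of this length and at least 3 in 1.41%. The Bcan window held GGGCGG once, a motif found in 32.9% of promoters, and no ACAAT. It held 16 CG dinucleotides, against 2 in Hapln2, 2 in Hapln1 and a median of 6 over all promoters. Hapln1 had ACAAT once, at the far end of its window and inside the gene by GENCODE, and Tnc had it 2 times. CG dinucleotides numbered 26 in Acan, 10 in Vcan, 8 in Tnc, 6 in Ncan and 2 in Tnr, with 3 GGGCGG in Acan, 2 in Vcan and 1 each in Ncan and Tnc. These are matches of letters and not binding sites.

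MO was compared with SAL on log2(normalized count + 1) with limma within each sex, and over both sexes as the mean of the within-sex differences. All tests over the 24 libraries, those of correlations included, treated them as independent. Litters shared by a male and a female library were not taken into account. No member passed an adjusted p of 0.05 (Benjamini-Hochberg over all genes tested) in any comparison, nor did any other gene, the smallest adjusted p in limma being 0.918 in females and 0.857 over both sexes. At an unadjusted p under 0.05, 0 of 9 members were called in males, where 2.85% of 16662 genes tested were. In females 2 of 9 were called, where 2.93% of 16717 genes were. One was Hapln4, lower in MO as were 1.12% of genes, and the other Hapln1, higher in MO as were 1.81%. Over both sexes 1 of 9 was called, where 4.64% of 17303 genes were. This was Hapln4, lower in MO as were 2.18% of genes. In the interaction of MO with sex 0 of 9 were called, where 2.1% of genes were. MO and SAL libraries overlapped for every member in both sexes. On this scale a log2 fold change understates the change of genes of low level, here Acan and Hapln2.

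**Figure D2:**
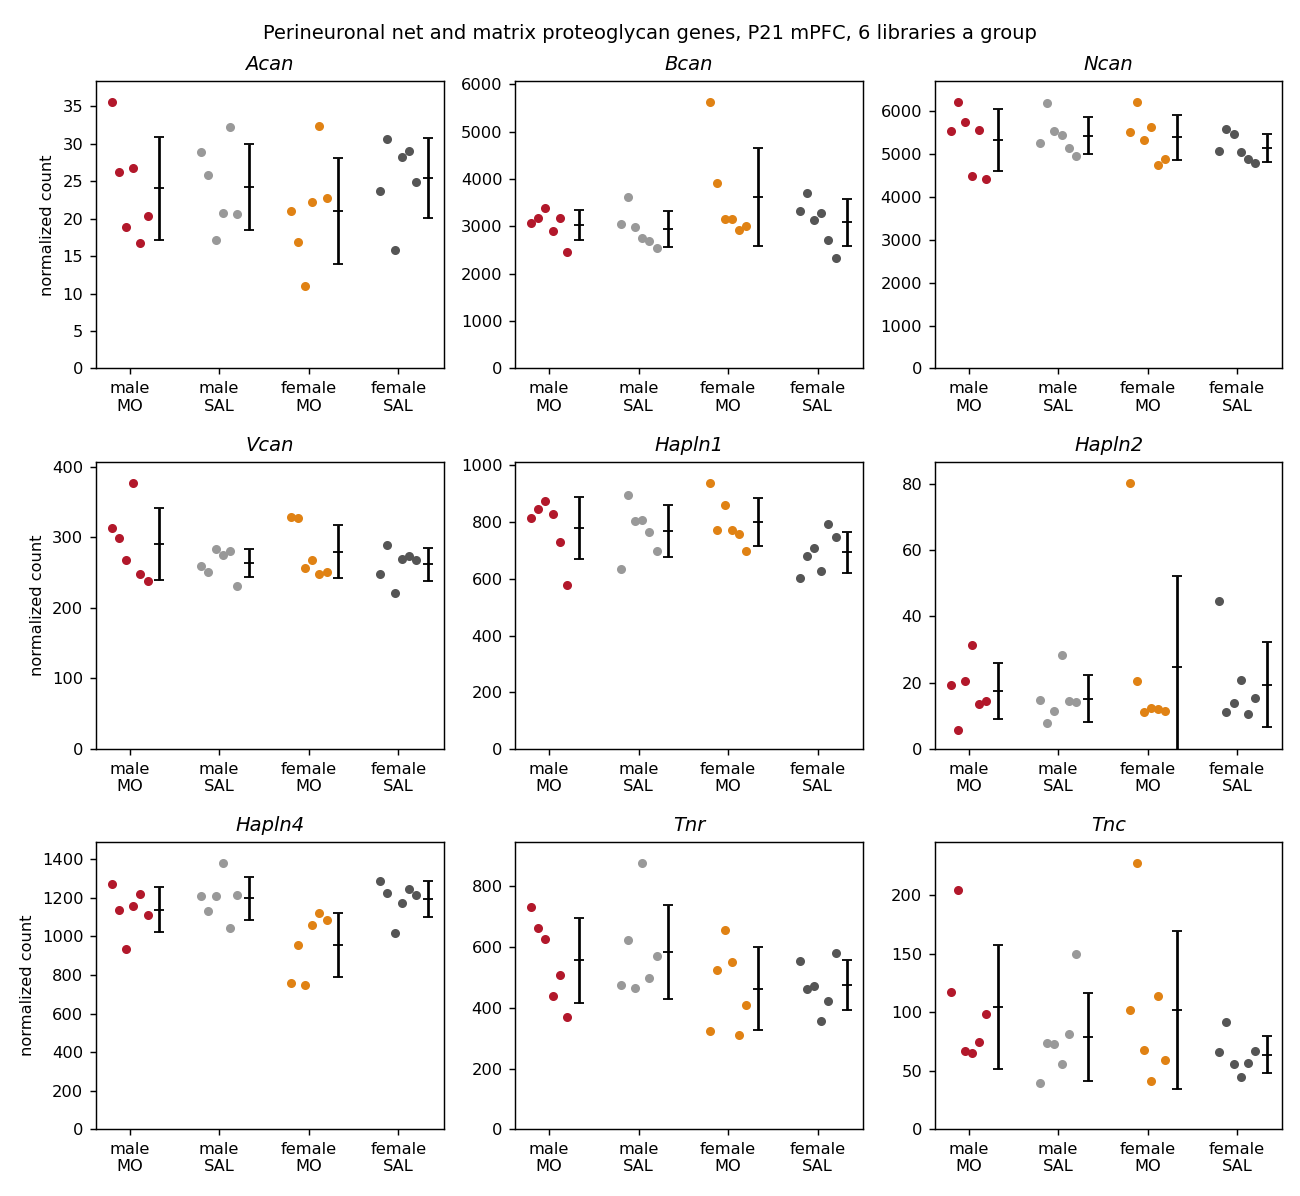
Normalized counts (y axis, linear from 0) of the 9 genes in male MO, male SAL, female MO and female SAL libraries (x axis), with 1 point for each of 6 libraries in a group, in the order of their numbers, and the mean with SD as a bar beside them (cut at 0 for Hapln2 in female MO). For Hapln4, the 6 female MO libraries lie at 747 to 1119, all below the female SAL mean of 1194.

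Among lecticans, Acan encodes aggrecan, the core proteoglycan by which nets are usually recognised. In males it had 16.7, 23.2 and 35.5 normalized counts (lowest, median and highest) in MO, against 17.2, 23.3 and 32.2 in SAL. In females these were 11.01, 21.6 and 32.3 normalized counts in MO, against 15.9, 26.5 and 30.6 in SAL, and 5 of 6 MO libraries lay below the SAL mean. The log2 fold change was -0.02 in males (exact permutation p = 0.896) and -0.30 in females (95% interval -0.79 to 0.20, exact permutation p = 0.253). The intervals leave room for differences of either sign. Without MO PFC5 the female value was -0.135, and it was -0.45 among female libraries with the suffix combined in their column names, whose meaning is not stated, and 0.01 among those without it.

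Bcan encodes brevican, the most abundant adult lectican, made by astrocytes and oligodendrocyte precursors. In males it had 2454, 3118 and 3378 normalized counts (lowest, median and highest) in MO, against 2548, 2872 and 3622 in SAL. In females it had 2913, 3146 and 5616 normalized counts in MO, against 2331, 3207 and 3709 in SAL. The highest value of all 24 was that of PFC1. The log2 fold change was 0.04 in males (exact permutation p = 0.673) and 0.21 in females (exact permutation p = 0.290), and without PFC1 the female value was 0.07.

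Ncan encodes neurocan, a lectican abundant in developing brain. Its log2 fold change was -0.03 in males (95% interval -0.20 to 0.13) and 0.06 in females (-0.09 to 0.22). With 4416 to 6196 normalized counts in MO and 4795 to 6183 in SAL over both sexes, Ncan had the narrowest interval of the 9 members over both sexes, -0.10 to 0.13 around 0.02. Vcan encodes versican, which oligodendrocyte precursors make and which is placed at nodes of Ranvier. In males it had 239, 284 and 377 normalized counts in MO, against 231, 268 and 283 in SAL, with 3 of 6 MO libraries above every SAL library. In females it had 248.6, 262 and 328 normalized counts in MO, against 220, 269 and 289 in SAL. The log2 fold changes were 0.13 in males (exact permutation p = 0.281) and 0.09 in females (exact permutation p = 0.353), and 0.11 over both sexes (95% interval -0.03 to 0.26, permutation p = 0.135). Without MO PFC15, the male MO library with the highest sums for oligodendrocytes and their precursors, the male value was 0.05. Among female libraries with the suffix combined the log2 fold change was 0.20, and among those without it -0.12.

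The link protein genes held the 2 members called before adjustment, and they differed in sign. Hapln4 encodes brain link protein, known in mouse hindbrain to hold brevican in nets. Female MO libraries had 747, 1009 and 1119 normalized counts (lowest, median and highest), against 1018, 1219 and 1287 in female SAL. All 6 MO libraries lay below the SAL mean and 3 of them, PFC1, PFC3 and PFC5, below every SAL library, while the other 3 lay within the SAL range. The female log2 fold change was -0.34 (SE 0.11, 95% interval -0.56 to -0.11, exact permutation p = 0.0108, adjusted p = 0.918 in limma). Male MO libraries had 932, 1147 and 1272 normalized counts, against 1045, 1209 and 1379 in male SAL. The male log2 fold change was -0.08 (95% interval -0.23 to 0.08, exact permutation p = 0.416). Over both sexes it was -0.21 (95% interval -0.34 to -0.07, permutation p = 0.0103, adjusted p = 0.857 in limma). The difference between the sexes was itself not called, with a male minus female log2 fold change of 0.26 (95% interval -0.01 to 0.54, unadjusted p = 0.0615 in limma), and of 0.14 after scaling to Gapdh and Ppia. Leaving out each library in turn gave -0.39 to -0.27 in females, with unadjusted p of 0.00269 to 0.0164, and without PFC1 the value was -0.27. Scaled to Gapdh and Ppia, the female value was -0.25. Over the 8 alternatives that kept all libraries, the unadjusted p was at most 0.0252 in limma. The column names of 4 MO and 4 SAL female libraries carry the suffix combined, and the log2 fold change was -0.43 among these and -0.16 among the 2 MO and 2 SAL libraries without it.

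Hapln1 encodes cartilage link protein, whose loss in mouse brain leaves nets attenuated. Female MO libraries had 699, 773 and 939 normalized counts (lowest, median and highest), against 604, 693 and 793 in female SAL. All 6 MO libraries lay above the SAL mean and 2, PFC1 and PFC5, above every SAL library. The female log2 fold change was 0.21 (SE 0.08, 95% interval 0.03 to 0.39, exact permutation p = 0.0411, adjusted p = 0.918 in limma). The unadjusted p was no longer under 0.05 without any 1 of MO PFC1, MO PFC5, SAL PFC2 or SAL PFC7, the log2 fold change then being 0.16 to 0.18 (unadjusted p of 0.0534 to 0.0684 in limma). Among female libraries with the suffix combined the log2 fold change was 0.35, and among those without it -0.08. Male MO libraries had 578, 823 and 873 normalized counts, against 636, 783 and 896 in male SAL, a log2 fold change of 0.02 (exact permutation p = 0.890). The male minus female difference was -0.19 (95% interval -0.47 to 0.09).

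Hapln2 encodes a link protein of the nodes of Ranvier on myelinated axons. Male MO libraries had 5.79, 16.9 and 31.3 normalized counts (lowest, median and highest), against 7.75, 14.3 and 28.3 in male SAL. Female MO libraries had 11.05, 12.2 and 80.3, against 10.6, 14.7 and 44.5 in female SAL. A single high library set the spread of both female groups, PFC1 among MO and PFC2 among SAL. The log2 fold change was 0.14 in males and 0.06 in females (95% interval -0.90 to 1.03, exact permutation p = 0.896), and without PFC1 the female value was -0.36.

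Tnr and Tnc encode tenascin-R, which cross-links lecticans in adult nets, and tenascin-C, a tenascin of developing and injured brain. Tnr had 368, 567 and 731 normalized counts (lowest, median and highest) in male MO, against 463, 534 and 874 in male SAL. It had 311, 466 and 653 in female MO, against 356, 466 and 578 in female SAL. Its log2 fold changes were -0.08 and -0.07 in males and females, with a permutation p of 0.614 over both sexes. With the suffix combined they were 0.55 in males and 0.13 in females, and without it -0.31 in males and -0.47 in females. Tnc had the largest log2 fold changes of the 9 members, and the widest spread of any but Hapln2. It had 64.8, 86.4 and 204 normalized counts in male MO, against 39.7, 73.3 and 149 in male SAL. It had 41.2, 85.01 and 227 in female MO, against 44.8, 61.4 and 91.7 in female SAL. In each sex the largest value was 1 MO library far above the other MO libraries, PFC11 and PFC3, and the groups overlapped. The log2 fold change was 0.39 in males (exact permutation p = 0.301), 0.48 in females (exact permutation p = 0.236) and 0.44 over both sexes (95% interval -0.04 to 0.92, permutation p = 0.101). Leaving out each library moved the value over both sexes between 0.30 and 0.54. Male libraries with the suffix combined, 2 MO and 1 SAL, gave 1.94, and those without it, 4 MO and 5 SAL, gave -0.12. Between libraries with and without the suffix the log2 fold change differed in sign for 6 of 9 members in males and 6 of 9 in females, Hapln4 and Bcan keeping theirs in both sexes.

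**Figure D3:**
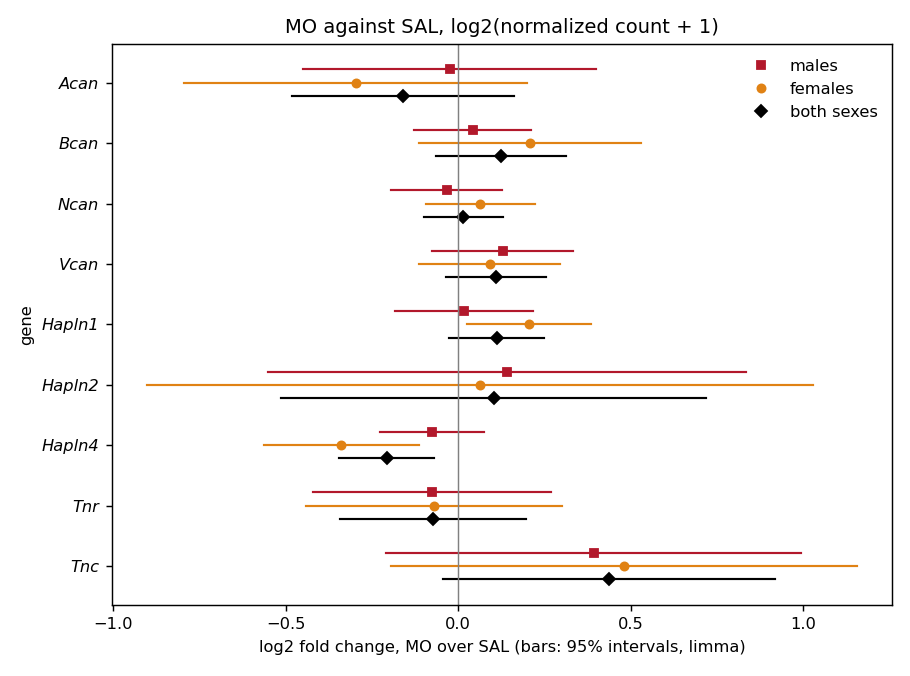
Log2 fold change of MO over SAL on log2(normalized count + 1) (x axis) for the 9 genes (y axis) in males, females and over both sexes, with 95% intervals from limma as bars. The intervals of Hapln4 in females (-0.56 to -0.11) and over both sexes (-0.34 to -0.07) and of Hapln1 in females (0.03 to 0.39) lie to one side of 0 before adjustment.

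Several of these genes varied between animals together with markers of cell types, often with more than 1 list. Values of each gene were set against the mean log2 level of 11 lists of cell type markers over the 24 libraries, with group means removed, and p-values come from 100000 permutations within groups, adjusted over the 99 relations, of which 15 passed by r and 12 by both r and rho. These libraries share dissection and normalization. Bcan followed the astrocyte list (Aqp4, Aldh1l1, Slc1a3, Slc1a2, Gja1, Gfap and Aldoc) with r = 0.94 and rho = 0.89 (permutation p = 2e-05 for each, adjusted permutation p = 0.00198). It held without the 2 most distant libraries (r = 0.88), in males (0.81), in females (0.97), with the suffix combined (0.96) and without it (0.87). All 7 astrocyte genes had a log2 fold change above 0 in females (list median 0.21), or 5 of 7 without PFC1 (list median 0.05), with sums of 67135 to 132934 normalized counts in female MO against 65731 to 84956 in female SAL. The highest of these sums was that of PFC1, and their part in the female Bcan value was not tested. Bcan also followed oligodendrocyte precursors with r = 0.80 and rho = 0.74 (adjusted permutation p = 0.00858 and 0.0117), with 0.68 without the 2 most distant libraries, 0.44 in males, 0.90 in females, 0.86 with the suffix and 0.64 without it. With endothelium it had r = 0.74 and rho = 0.67 (adjusted permutation p = 0.0146 and 0.0170), with 0.58 without the 2 most distant libraries, 0.63 in males, 0.81 in females, 0.64 with the suffix and 0.70 without it. Its relations with microglia (r = 0.75, rho = 0.72, adjusted permutation p = 0.0161 and 0.0119, 0.65 without the 2 most distant libraries, 0.89 with the suffix and 0.53 without it) and mature oligodendrocytes (r = 0.70, rho = 0.67, adjusted permutation p = 0.0222 and 0.0227, 0.55 without the 2 most distant libraries, 0.78 with the suffix and 0.48 without it) were weak in males, at 0.30 and 0.05, beside 0.88 and 0.89 in females. Ncan followed the astrocyte list with r = 0.58 and rho = 0.73 (permutation p = 0.00342 and 0.00016, adjusted 0.0308 and 0.00528), and r = 0.67 without the 2 most distant libraries. For Ncan, r was 0.73 in males, 0.58 in females, 0.70 without the suffix and 0.21 with it. Bcan and Ncan were the only pair of the 36 among the 9 genes whose correlation passed adjustment (r = 0.62, rho = 0.74, permutation p = 0.00069 and 0.00011, adjusted permutation p = 0.0248 and 0.00396 over 36 pairs, r = 0.76 without the 2 most distant libraries). For that pair r was 0.82 in males, 0.59 in females, 0.83 without the suffix and 0.08 with it.

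Hapln2 followed the mature oligodendrocyte list (with genes such as Mbp, Mog and Mag) with r = 0.82 and rho = 0.72 (permutation p = 4e-05 and 0.00029, adjusted permutation p = 0.00198 and 0.00718). Without the 2 most distant libraries r was 0.69, in males 0.75, in females 0.85, with the suffix 0.90 and without it 0.74. The genes of this list together reached 48790 to 316227 normalized counts in MO females, against 32940 to 144887 in SAL females. In MO males they reached 41215 to 147486, against 48424 to 84281 in SAL males. All 9 genes had a log2 fold change above 0 in females (list median 0.29) and in males (0.23), but without PFC1 4 of 9 were above 0 in females (list median -0.01). Their part in the differences of Hapln2 was not tested. Hapln2 followed the list of striatal projection neurons as well, with r = 0.76 and rho = 0.74 (permutation p = 0.00086 and 6e-05, adjusted 0.0161 and 0.00297), 0.53 without the 2 most distant libraries, 0.67 in males, 0.82 in females, 0.78 with the suffix and 0.77 without it. PFC1 and male SAL PFC16, both far above their groups in Hapln2, also had the highest striatal sums of theirs. With oligodendrocyte precursors Hapln2 had r = 0.69 and rho = 0.63 (adjusted permutation p = 0.0161 and 0.0297), 0.53 without the 2 most distant libraries, 0.39 in males, 0.81 in females, 0.84 with the suffix and 0.54 without it. With microglia it had r = 0.69 and rho = 0.54 (adjusted permutation p = 0.0164 and 0.0778), 0.52 without the 2 most distant libraries, 0.46 in males, 0.78 in females, 0.75 with the suffix and 0.64 without it. Vcan followed the astrocyte list with r = 0.58 and rho = 0.61 (permutation p = 0.00537 and 0.00416, adjusted 0.0380 and 0.0343), and r = 0.44 without the 2 most distant libraries, 0.51 in males, 0.68 in females, 0.71 with the suffix and 0.45 without it. It passed by r alone with the precursor list of Pdgfra, Cspg4, Olig1, Olig2, Sox10 and Gpr17 with r = 0.59 and rho = 0.58 (permutation p = 0.00617 and 0.011, adjusted 0.0407 and 0.0778), and r = 0.50 without the 2 most distant libraries, 0.74 in males, 0.58 in females, 0.65 with the suffix and 0.53 without it. Hapln1 passed by r alone with markers of fibroblasts and meninges (r = 0.58, rho = 0.50, permutation p = 0.00415 and 0.0209, adjusted 0.0342 and 0.133), with r = 0.49 without the 2 most distant libraries, 0.61 in males, 0.60 in females, 0.68 with the suffix and 0.52 without it. Sums of these markers were 1045 to 1934 normalized counts in female MO against 578 to 1896 in female SAL, and their part in the female Hapln1 value was not tested.

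Hapln4 was the one member whose relation with markers of parvalbumin interneurons passed adjustment. Against the list of Pvalb, Syt2, Kcnc1, Kcnc2, Lhx6, Erbb4 and Gad1 it had r = 0.70 and rho = 0.70 (permutation p = 0.00109 and 0.00084, adjusted permutation p = 0.0161 and 0.0119). Without the 2 most distant libraries r was 0.59, without PFC1 0.63, in males 0.57, in females 0.78, with the suffix 0.77 and without it 0.59. In female MO libraries the summed level of this list was 6710 to 10011 normalized counts (median 8724), against 8699 to 9964 (median 9386) in female SAL. In males it was 9222 to 10974 (median 9991) in MO, against 9473 to 10877 (median 9918) in SAL. Of its 7 genes, 6 had a log2 fold change below 0 in females (list median -0.12, or -0.07 with 4 genes below 0 without PFC1, the library of the lowest sum, and -0.03 with 5 below 0 after scaling to Gapdh and Ppia) and 4 in males (list median 0.00), and none had an unadjusted p under 0.05. The part of these markers in the Hapln4 difference was not tested. Hapln4 ran opposite to the blood list of hemoglobin genes and Alas2 (r = -0.65, rho = -0.63, permutation p = 0.00449 and 0.00389, adjusted 0.0342 and 0.0343), with r = -0.52 without the 2 most distant libraries, -0.48 in males, -0.75 in females, -0.70 with the suffix and -0.56 without it. Blood genes together had 3074 to 8580 normalized counts in MO females, against 1654 to 7285 in SAL females, and 3393 to 7320 (median 5466) in MO males, against 1606 to 7417 (median 3695) in SAL males. All 4 blood genes had a log2 fold change above 0 in females (list median 0.76, or 0.54 without PFC1) and 3 of 4 in males (0.45). In males 1 of the 4 was higher in MO and 1 lower at an unadjusted p under 0.05. Over both sexes the list median was 0.60 and 3 of 4 genes had an unadjusted p under 0.05, all 3 higher in MO (2 of 4 without PFC1). Their part in the Hapln4 difference was not tested either. For Acan, counting error alone gives a coefficient of variation of 19.8% to 21.9% within a group, where 21.0% to 33.6% was found. This weakens any correlation of Acan. Acan, the gene of the protein most tied to parvalbumin cells, had r = 0.26 with their list (rho = 0.26, permutation p = 0.282 and 0.254, adjusted 0.549 and 0.562, r = 0.42 without the 2 most distant libraries), with 0.07 in males, 0.40 in females, 0.34 with the suffix and 0.18 without it. Tnr had r = 0.48 with it (rho = 0.45, permutation p = 0.0337 and 0.0412, adjusted 0.157 and 0.204), with 0.88 in males, 0.15 in females, 0.53 with the suffix and 0.58 without it, and 0.28 without the 2 most distant libraries.

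**Figure D4:**
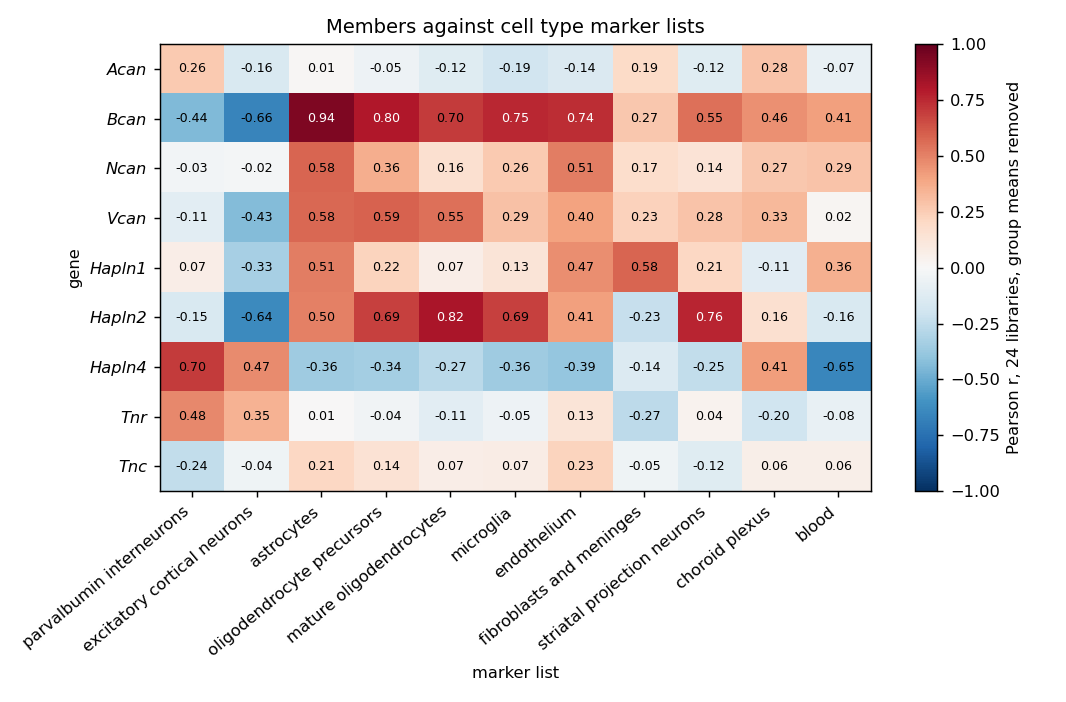
Pearson r over 24 libraries, with group means removed, between each of the 9 genes (y axis) and the mean log2 level of each of 11 marker lists (x axis), from blue at -1 to red at 1. The highest value is that of Bcan with astrocytes at 0.94, followed by Hapln2 with mature oligodendrocytes at 0.82.

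**Figure D5:**
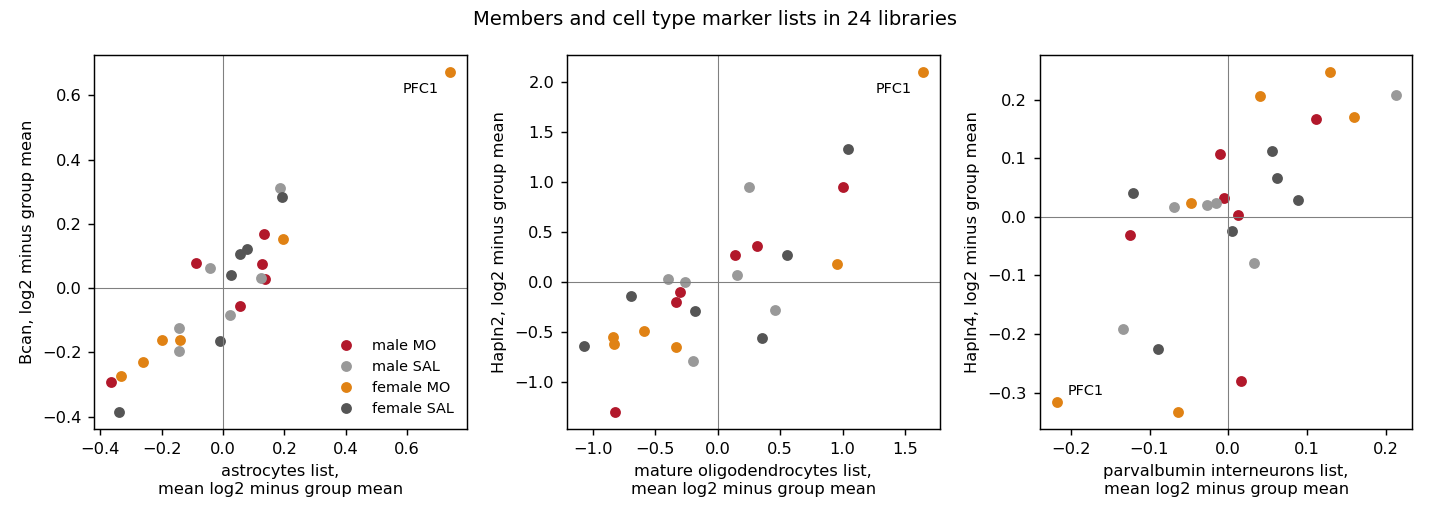
Bcan, Hapln2 and Hapln4 (y axes, log2 minus the mean of the group) against the marker list each was set beside in the text (x axes, mean log2 of the list minus the mean of the group), with 1 point for each of 24 libraries coloured by group. PFC1 lies at the far upper right for Bcan and Hapln2 and at the lower left for Hapln4.

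The genes most like each member over the 24 libraries, by Pearson r with group means removed searched over all genes that average 50 or more normalized counts in each table, differed from member to member. For Bcan they were Prdx6 (r = 0.95), Gpr37l1 (0.94) and Acsf2 (0.94), and for Hapln2 Rnf13 (0.94), Ubl3 (0.92) and Anln (0.89). For Ncan they were the basement membrane collagen genes Col4a1 (0.88) and Col4a2 (0.86), then Fbxw8 (0.82). For Hapln4 they were Mtcl1 (0.85) and Apbb2 (0.84). Hapln1 was nearest to Rb1 (0.85), Sgk3 (0.82) and Nras (0.81), and Tnr to Tnks (0.95), Ago2 (0.94) and Mtmr9 (0.93). Vcan was nearest to Git2 (0.83), Ankrd13a (0.78) and Prox1 (0.76). Acan and Tnc had no close partner, at most 0.69 with Epha10, Pip5k1b or Sart3 for Acan and 0.69 with Rnf213, then Emcn and S100a6, for Tnc. Each was the highest of 11782 or 11783 genes searched, so these values are a description.

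The genes that build, cut and bind the matrix were looked at as 5 further lists. In no list did any gene pass an adjusted p of 0.05 in limma. Of 11 measured genes of hyaluronan synthesis, turnover and binding, 6 had a log2 fold change above 0 in females (median 0.01) and 3 in males (median -0.03), where 50.5% and 49.9% of all genes were above 0 with a median of 0.00. The hyaluronan synthase gene Has2 had the smallest p, with 7.66 ± 0.334 normalized counts in female MO against 6.01 ± 1.98 in female SAL, and 7.52 ± 3.58 in male MO against 4.35 ± 1.93 in male SAL (SD, n = 6 each). Its log2 fold change was 0.49 over both sexes (unadjusted p = 0.0168, adjusted p = 0.857 in limma) at a level of few reads. The most abundant genes of the list were those of hyaluronan-degrading proteins, Cemip (-0.06 over both sexes) and Tmem2 (0.05), at means of 603 and 250.1 normalized counts.

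Of 21 tested genes that make chondroitin sulfate chains, 13 were above 0 in females (median 0.03) and 9 in males (median -0.02), and after scaling to Gapdh and Ppia 18 in females. The chondroitin synthase gene Chsy3 had 277 ± 40.3 normalized counts in female MO against 339 ± 29.0 in female SAL, and 328 ± 23.5 in male MO against 333 ± 29.3 in male SAL (SD, n = 6 each). All 6 female MO libraries lay below the SAL mean, with a log2 fold change of -0.30 in females (exact permutation p = 0.0130, adjusted p = 0.918 in limma) and -0.02 in males. Scaled to Gapdh and Ppia, the female value was -0.21 with an unadjusted p of 0.0776 in limma. Csgalnact2, which starts the chain, had 0.14 over both sexes (unadjusted p = 0.0410 in limma). The linker enzymes Fam20b and B3gat3, the most abundant of the list, had -0.02 and 0.06 over both sexes.

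Of 9 other chondroitin sulfate proteoglycan genes, 6 were above 0 in females (median 0.05) and 2 in males (median -0.01). Ptprz1, the gene of phosphacan and its receptor form, had a log2 fold change of 0.22 in females (exact permutation p = 0.0693) and 0.00 in males. Without PFC1 the count was 3 of 9 above 0 in females, and no gene of the list then had an unadjusted p under 0.05. Dcn, the gene of decorin in fibroblasts, had -0.43 in males (exact permutation p = 0.0498), where all 6 MO libraries lay below the SAL mean. Of 5 fibroblast and meningeal markers, one of them Dcn, 5 were also below 0 in males and 4 had an unadjusted p under 0.05, with sums of 661 to 1231 normalized counts in male MO against 962 to 1995 in male SAL, and their part in Dcn was not tested. Spock2 and Cspg5, the most abundant of the list, had -0.06 and 0.05 over both sexes. Of 17 tested genes of matrix proteases and their inhibitors, 9 were above 0 in females and 6 in males. None had an unadjusted p under 0.05 in either sex or over both sexes. In the interaction of MO with sex 1 gene did, and in females without PFC1 also 1. The inhibitor genes Timp2 (-0.03 over both sexes) and Timp3 (0.06) were the most abundant.

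Of 11 genes for receptors and partners of the net, 1 had a log2 fold change above 0 in females (median -0.14) and 5 in males (median -0.01). Without PFC1, 3 of 11 were above 0 in females and the median was -0.05, and after scaling to Gapdh and Ppia 2 of 11 were and the median was also -0.05. Sema3a, a secreted guidance protein that binds net chondroitin sulfate, had 358 ± 38.0 normalized counts in female MO against 427 ± 57.1 in female SAL, and 428 ± 65.4 in male MO against 467 ± 49.9 in male SAL (SD, n = 6 each). Its log2 fold change was -0.25 in females (exact permutation p = 0.0260), with 6 of 6 MO libraries below the SAL mean, and -0.19 over both sexes (adjusted p = 0.857 in limma). Scaled to Gapdh and Ppia, the female value was -0.16 with an unadjusted p of 0.216 in limma. Cntn1, a contactin that binds tenascin-R, and Lingo1, a subunit of Nogo receptor complexes, had -0.07 and -0.08 over both sexes.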

How the data were processed

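Polyadenylated RNA was sequenced by the authors as single 85-base reads, aligned with STAR to mm10, quantified with Salmon and compared with DESeq (submitters' processing notes, which give no versions). What the authors deposited is a signal, a normalized count for each gene and library in a male and a female table. Raw counts were not used here, so count models were not run. Reads per library were approximated from the commonest low value, near which 89.0% to 97.2% of the lowest values of a library lay (within 5%).

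Values were transformed as log2(normalized count + 1). A gene was tested if its libraries in the comparison added up to 10 or more. Linear models were fitted with limma 3.58.1 (R 4.3.3) using a mean-variance trend and Benjamini-Hochberg adjustment. The fit was tested on simulated data. Single genes were also tested by 2-sided permutation, exact over 924 relabellings within a sex and with 100000 shuffles within sex over both. Intervals are 2-sided at 95%. The p-values set a group difference against the variation between libraries, in which animals, litters, dissection and library preparation all enter. The relations with marker lists were planned as a description, and their permutation p-values were added. Figures were drawn with matplotlib 3.10.9 in Python 3.11.15.

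The genes and lists were chosen with earlier results of these data known. Named genes were all 9 members, and of each further list those with an unadjusted p under 0.05 in a sex or over both (up to 4 by smallest p) and the 2 with the highest mean. For likeness, the 3 genes of highest r were named, except that 1 gene is not reported here. The alternatives were other pseudocounts, no filter, a mean of at least 10, median-of-ratios rescaling, scaling to Gapdh and Ppia, array weights, a term for the suffix combined, and leaving out each library.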

Additional observations from a re-analysis of the deposited data

Results flagged for a closer look

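Of 100 groups of 6 libraries examined for 9 members and the named genes of the further lists, 8 held a library far from the others of its group, 4 of them among the 36 groups of members. Chance alone marks about 1 in 20 groups. Female MO PFC1 had 5616 normalized counts of Bcan (nearest library 3913), 80.3 of Hapln2 (nearest 20.4) and 2194 of Timp3 (nearest 1420), each the highest of its group, and 5357 of Cntn1 (nearest 8556), the lowest of its group. Hapln2 was also far above its group in male SAL PFC16, at 28.3 normalized counts (nearest 14.9), and in female SAL PFC2, at 44.5 (nearest 20.8). PFC2 had the highest mature oligodendrocyte sum of female SAL libraries, 144887 normalized counts, and PFC16 the highest striatal sum of male SAL libraries, 4858. Tmem2 was highest in male MO PFC15 at 354 normalized counts (nearest 271), and Cspg5 lowest in male SAL PFC16 at 5629 (nearest 6385).

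The effect of MO on Chsy3 differed between the sexes before adjustment, with a male minus female log2 fold change of 0.28 (unadjusted p = 0.0334, adjusted p = 1.00 in limma). Without PFC1 it was 0.19 (unadjusted p = 0.0645 in limma).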

How the results depend on the processing

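No paired analysis was possible because no pairing of libraries is given, and which male and female libraries are littermates is not known. No gene passed an adjusted p of 0.05 under any alternative run. Over 29 comparisons of members and their 712 alternatives, 663 kept direction and side of an unadjusted p of 0.05, 32 changed sign, none of these with an unadjusted p under 0.05, 4 lost and 13 gained it. For the interaction, these comparisons cover Hapln1 and Hapln4 only. Median-of-ratios rescaling gave the same fit as the main one, and a changed filter leaves a member's log2 fold change as it was. Those alternatives could not change a sign. Scaling to Gapdh and Ppia moved the median of all genes by 0.09 in females and -0.11 in the interaction (log2), and gave 97 higher and 193 lower genes in males (222 and 253 without it), 290 in all, 623 and 47 in females (302 and 188), 620 and 90 over both sexes (425 and 377), and 44 and 438 in the interaction (132 and 232). Under it Hapln1 in males was -0.010 and Tnr in females 0.021. With array weights Tnr was 0.056 in males, 0.11 in females and 0.080 over the 2 sexes, and Hapln2 -0.30 in females and -0.021 over both. A mean of at least 10 left 233 genes at an unadjusted p under 0.05 in the interaction (364 without it). Leaving out each library gave 392 to 685 such genes in males (475 with all), 375 to 842 in females (490, highest without MO PFC8), 569 to 1455 over both sexes (802, highest without MO PFC8) and 309 to 665 in the interaction (364, highest without MO PFC21). It gave 0 to 1 such members in males (Tnc without SAL PFC20), 1 to 3 in females (Tnc also, without MO PFC8), 1 to 2 over both sexes and 0 to 1 in the interaction (Hapln4). Log2 fold changes that changed sign ranged in males from -0.14 to 0.067 for Acan, -0.080 to 0.018 for Ncan, -0.036 to 0.10 for Hapln1, -0.049 to 0.40 for Hapln2 and -0.16 to 0.048 for Tnr, in females from -0.36 to 0.33 for Hapln2 and -0.18 to 0.034 for Tnr, and over both sexes from -0.0074 to 0.042 for Ncan and -0.11 to 0.24 for Hapln2. The cause was not tested. Acan, Hapln2 and Has2 rest on few reads.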

Other observations

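The ratio of Hapln4 to Hapln1, chosen after their values were seen and so given with no test, was 1.22 ± 0.315 in female MO (0.806 to 1.55) and 1.74 ± 0.247 in female SAL libraries (1.44 to 2.13), and 1.49 ± 0.294 in male MO and 1.58 ± 0.244 in male SAL (SD of normalized count ratios, n = 6 each). The lowest ratios of the 24 libraries were those of female MO PFC1 at 0.806 and PFC5 at 0.869, and the highest that of female SAL PFC2 at 2.13.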
